A study of Mus musculus with 20 samples.

Results

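The 6 genes of the platelet-derived growth factor (PDGF) family, 4 ligand genes (Pdgfa, Pdgfb, Pdgfc and Pdgfd) and 2 receptor genes (Pdgfra and Pdgfrb), were read by gene name from a table of 30691 named gene rows in mouse whole lung. They were picked by family name and not by a cut on their values, though earlier results of these data were known. All 6 passed the filter on low values. The series sequenced RNA from lungs of C57BL/6 wild-type mice (WT) and of mice labelled as VIP knockout (VIPKO), which the genotype field of the labels calls a knockdown. Vip codes for vasoactive intestinal peptide, and the series title describes pulmonary arterial hypertension in mice with this gene deleted. Mice of either genotype breathed 21% oxygen (normoxia) or 10% oxygen for 4 weeks (hypoxia). The groups were WT normoxia (n = 6), WT hypoxia (n = 5), VIPKO normoxia (n = 4) and VIPKO hypoxia (n = 5). The sources used here give neither the age of the mice nor the design of the Vip allele. Nothing in the labels says that the libraries of a group are from different animals, and p-values therefore cover only the spread among libraries, which may be technical.

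PDGF ligands are secreted dimers that bring receptor tyrosine kinases together at the cell surface. The α receptor (Pdgfra) binds the A, B and C chains, and the β receptor (Pdgfrb) binds mainly the B and D chains. The C and D chains are secreted with a CUB domain that proteases must cut off before the ligand can bind. In the lung, endothelial cells and platelets are known sources of PDGF-B, which recruits pericytes and vascular smooth muscle carrying the β receptor, while epithelial PDGF-A acts on fibroblasts carrying the α receptor during formation of the alveoli. PDGF is a known growth signal for vascular smooth muscle in pulmonary hypertension.

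In the GENCODE vM21 annotation of GRCm38 (mm10), Pdgfa lies on chromosome 5 from 138976014 to 138997370 (minus strand) and Pdgfra on the same chromosome from 75152292 to 75198215 (plus strand). Pdgfb lies on chromosome 15 from 79995874 to 80014977 (minus strand), Pdgfc on chromosome 3 from 81036416 to 81214040 (plus strand), and Pdgfd on chromosome 9 from 6168584 to 6378850 (plus strand). Values cover each whole gene, so isoforms were not separated.

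The coding sequences of Pdgfa and Pdgfb are shown around stretches that they share, because reads can be told apart between relatives only where their sequences differ. The longest exact run of bases common to both was 12 bases long, and 3 runs had that length. The capitals mark the 2 of them that lie within the stretches shown. Positions are counted from 1 at the A of the start codon, and the stretches cover coding positions 313 to 384 of Pdgfa and 316 to 387 of Pdgfb (GENCODE vM21 transcripts).
Pdgfa: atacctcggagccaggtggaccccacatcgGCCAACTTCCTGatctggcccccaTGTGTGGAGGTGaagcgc
Pdgfb: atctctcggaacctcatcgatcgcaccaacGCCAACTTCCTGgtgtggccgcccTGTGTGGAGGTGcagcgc
Over all 15 pairs of the 6 genes the longest shared run was 10 to 21 bases, and the longest lay between the receptor genes Pdgfra and Pdgfrb.

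Depth, estimated from the smallest step of each library's values, ran from 4.96 to 56.7 M reads (median 17.8 M), and the shallowest library was WT hypoxia 4. The lung label was borne out by alveolar type 2 markers, whose summed signal was 171914 to 488747, and by alveolar type 1 markers, with 0 of 7 at 0 in any library. Vip signal was 0 to 93.0 in WT libraries and 1.08 to 106 in VIPKO libraries, with the highest value in the library labelled VIPKO hypoxia 4, so it did not bear out the genotype labels and every genotype direction here rests on the labels. VIPKO normoxia 2, VIPKO normoxia 3 and VIPKO hypoxia 2 stood apart at the low end of the first principal component (-59.2, -75.4 and -65.4, against -33.6 or above elsewhere). Its high end reached as far, with VIPKO hypoxia 3 at 76.2, WT hypoxia 3 at 58.9 and WT hypoxia 5 at 58.5. Mitochondrial ribosomal RNA signal moved with genotype. In normoxia it was 97.7 to 2075 in WT and 12034 to 27208 in VIPKO, without overlap. In hypoxia it was 396 to 7058 in WT and 4506 to 9415 in VIPKO, and these ranges overlapped. Its effect as a covariate therefore cannot be separated from that of genotype in normoxia. Skeletal muscle markers peaked in WT hypoxia 5 (summed signal 33784) and thymus markers in VIPKO hypoxia 3 (15337).

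Per kilobase of annotated exon, the receptor gene Pdgfra was the most abundant, at a mean signal of 884 ± 156 per kb (SD, n = 20). Pdgfb followed at 718 ± 184, Pdgfrb at 684 ± 203, Pdgfa at 423.7 ± 46.6, Pdgfd at 152 ± 26.2 and Pdgfc at 13.8 ± 3.22 signal per kb (SD, n = 20). Pdgfra, Pdgfb and Pdgfrb overlapped in range and their means lay within about 1 SD of each other. These means and SDs pool the 4 groups. In WT normoxia Pdgfra and Pdgfb were level, at 931 ± 68.7 and 928 ± 146 per kb (SD, n = 6). In each of the other groups Pdgfra had the highest mean. Pdgfd, at 122 to 215 per kb, lay below every Pdgfa value (357 to 543), and Pdgfc, at 6.80 to 21.8 per kb, lay below every Pdgfd value. Pdgfc rested on 21 to 181 estimated reads per library, so its values carry the most counting error. The other 5 genes rested on at least 131 estimated reads.

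**Figure D1:**
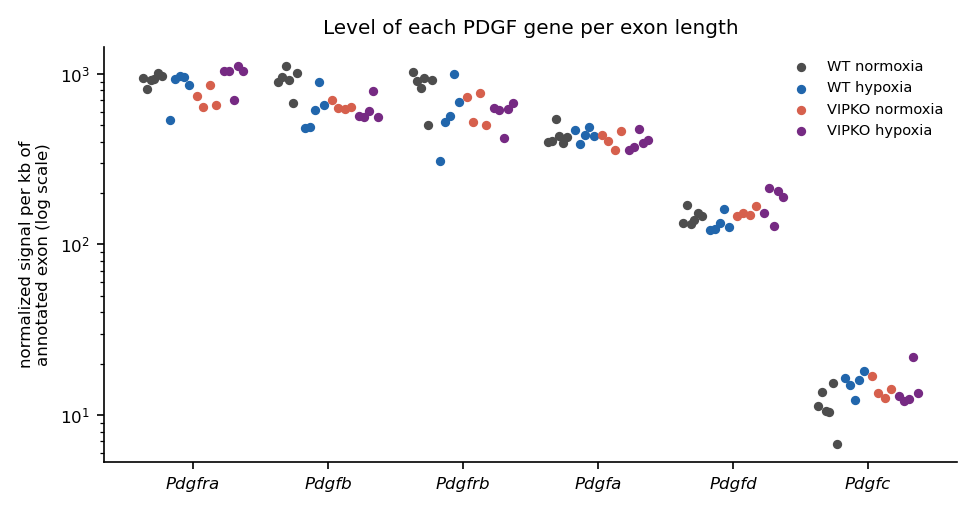
Normalized signal per kb of annotated exon (log axis) of the 6 PDGF genes, ordered by mean, with 1 point per library coloured by group. Pdgfra, Pdgfb and Pdgfrb overlap at the top, Pdgfa is lower, Pdgfd lies at 122 to 215 and Pdgfc at 6.80 to 21.8 per kb.

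Among the ligands, Pdgfb was lower in WT lungs after hypoxia and in VIPKO lungs in normoxia than in WT normoxia. Pdgfb codes for the B chain, which homodimerizes as PDGF-BB and activates both receptors. Its signal in WT normoxia had a lowest value of 2798, a median of 3901 and a highest value of 4603. The WT hypoxia libraries 1 to 5 had 2009, 2027, 2550, 3720 and 2722. In 4 of 5 WT hypoxia libraries the value lay below the lowest value of WT normoxia. WT hypoxia 4 lay among the WT normoxia values, so the groups overlapped. It is the shallowest library, though its Pdgfb value still rested on 957 estimated reads. Pdgfb fell by 0.59 ± 0.14 on the log2 scale (log2 fold change ± SE of log2(signal + 1), 95% interval -0.89 to -0.29, 0.665 of the normoxia level), with a Benjamini-Hochberg adjusted p of 0.0137 over 21658 genes in limma. This call held when each of the 20 libraries was left out in turn (-0.73 to -0.50, limma adjusted p 0.00200 to 0.0421) and without the libraries that stood apart. In whole lung, fewer cells of a type and less RNA per cell cannot be told apart.

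In VIPKO normoxia libraries 1 to 4 the Pdgfb signal was 2903, 2630, 2586 and 2645. These values lay close together (2691 ± 143, SD, n = 4, against 3860 ± 607, SD, n = 6, in WT normoxia), and only WT normoxia 5, at 2798, lay within their range. Pdgfb was lower in VIPKO by 0.51 ± 0.15 (log2 fold change -0.51, 95% interval -0.82 to -0.19, limma adjusted p = 0.0448). The call is at the edge of the threshold: it was lost without any 1 of WT normoxia 1, 2, 3, 4 or 6, WT hypoxia 3 or 5, VIPKO normoxia 2, 3 or 4, or VIPKO hypoxia 1 or 5 (limma adjusted p up to 0.126). It was also lost without the 3 VIPKO libraries that stood apart (-0.46, limma adjusted p = 0.321) and with mitochondrial ribosomal RNA as a covariate (-0.39, limma adjusted p = 0.681). Each of these 2 settings called 0 of all genes tested in this comparison, so neither loss is particular to Pdgfb. The first leaves only VIPKO normoxia 1 and 4 in their group, and the covariate cannot be separated from genotype in normoxia. Both Pdgfb comparisons use the same 6 WT normoxia libraries as reference, so they are not independent of each other.

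The Pdgfb signal of VIPKO hypoxia libraries 1 to 5 was 2337, 2305, 2529, 3298 and 2332. These overlapped the VIPKO normoxia values, and hypoxia against normoxia in VIPKO gave a log2 fold change of -0.08 ± 0.16 (95% interval -0.42 to 0.25, limma adjusted p = 0.858). VIPKO and WT in hypoxia had nearly the same mean signal, 2560 ± 422 and 2606 ± 698 (SD, n = 5 each), with a log2 fold change of 0.00 and a 95% interval of -0.31 to 0.31 (limma adjusted p = 0.998). The difference between the hypoxia effects of the genotypes was 0.50 ± 0.21 on the log2 scale and did not pass (limma interaction, adjusted p = 0.290). The effect of hypoxia on Pdgfb is thus not shown to differ between WT and VIPKO.

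**Figure D2:**
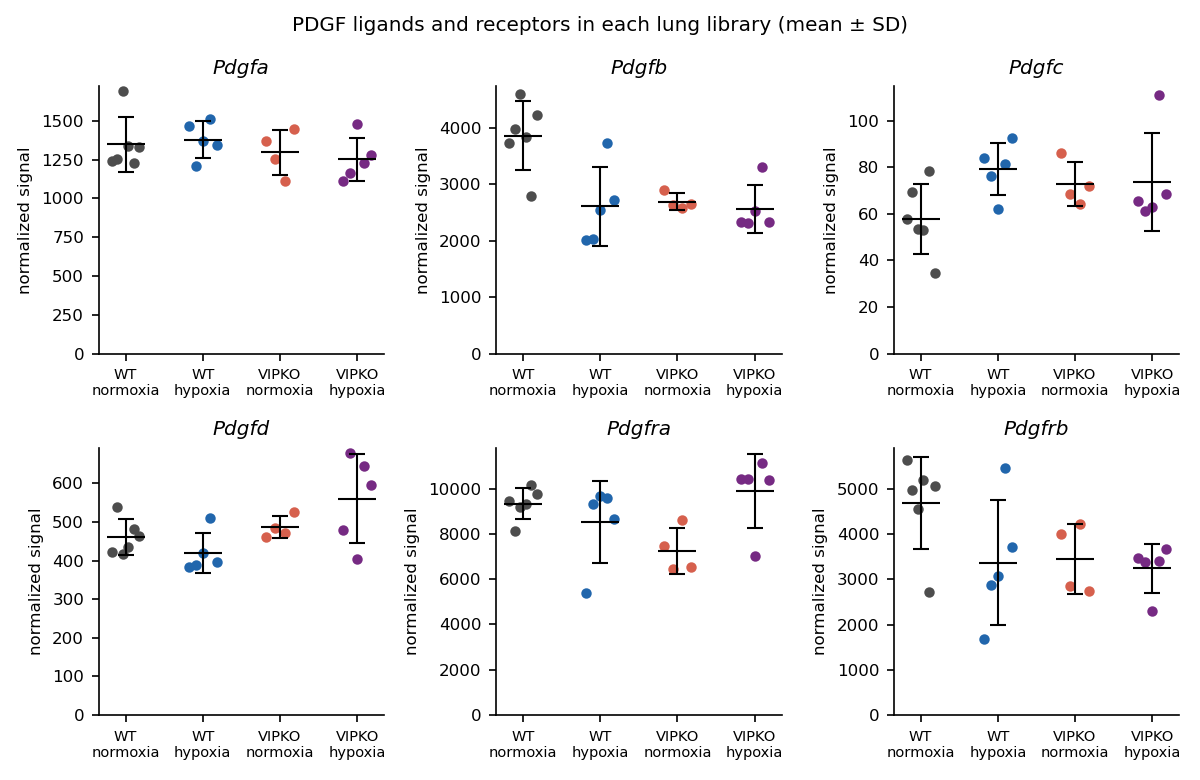
Normalized signal (vertical axis, from 0) of each PDGF gene in the 20 libraries, with 1 point per library and bars for the group mean ± SD. WT normoxia has the highest mean of Pdgfb (3860, against 2560 to 2691 in the other groups), and the Pdgfa groups overlap throughout.

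Pdgfa, which codes for the A chain, was nearly even across the groups. WT lungs had a mean signal of 1349 ± 176 in normoxia (SD, n = 6) and 1379 ± 118 in hypoxia (SD, n = 5). VIPKO lungs had 1297 ± 146 in normoxia (SD, n = 4) and 1251 ± 141 in hypoxia (SD, n = 5). Single libraries ranged from 1113 to 1695, and all 4 groups overlapped. The 4 log2 fold changes between groups were -0.14 to 0.04, with limma adjusted p of 0.458 to 0.872. The 95% intervals reached no further than -0.35 and 0.24, which leaves room for changes of that size.

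Pdgfc codes for the C chain, a ligand of the α receptor. Its signal in WT normoxia had a lowest value of 34.6, a median of 55.7 and a highest value of 78.6. The WT hypoxia libraries 1 to 5 had 83.9, 76.1, 62.3, 81.6 and 92.5, so 3 of 5 lay above every WT normoxia library. The log2 fold change was 0.48 ± 0.20 (95% interval 0.06 to 0.90) and did not pass (limma adjusted p = 0.103). In VIPKO normoxia Pdgfc was 86.0, 68.7, 64.0 and 72.2, and in VIPKO hypoxia it was 65.4, 61.3, 62.8, 111 and 68.3. Hypoxia against normoxia in VIPKO gave -0.01 ± 0.22 and did not pass in limma, with 1 library, VIPKO hypoxia 4, far above the other 4.

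Pdgfd codes for the D chain, a ligand of the β receptor. The WT hypoxia libraries 1 to 5 had signals of 384, 389, 419, 509 and 396, while VIPKO hypoxia libraries 1 to 5 had 480, 677, 405, 645 and 596. VIPKO hypoxia 1 and 3 lay inside the WT hypoxia range, and the other 3 VIPKO libraries lay above it. The log2 fold change of VIPKO against WT in hypoxia was 0.40 ± 0.12 (95% interval 0.14 to 0.66) and did not pass (limma adjusted p = 0.0947). Without VIPKO hypoxia 3, the library with the thymus signal, it was 0.51 and passed (limma adjusted p = 0.0134), and without WT hypoxia 4 it was 0.47 and passed (limma adjusted p = 0.0491). In normoxia the means were close, 460 ± 46.0 in WT (SD, n = 6) and 486 ± 28.5 in VIPKO (SD, n = 4).

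Of the receptors, Pdgfrb had a lower mean outside WT normoxia but no call. It lies on chromosome 18 from 61045150 to 61085061 (plus strand) in the same annotation. It codes for the β receptor, a defining gene of pericytes and also carried by vascular smooth muscle. Its signal in WT normoxia had a lowest value of 2731, a median of 5018 and a highest value of 5640. The WT hypoxia libraries 1 to 5 had 1688, 2868, 3081, 5465 and 3724, so 1 library lay below every WT normoxia library and the other 4 lay inside their range. The log2 fold change was -0.54 ± 0.23 (95% interval -1.02 to -0.07), close in size to that of Pdgfb but with a larger error (limma adjusted p = 0.106). The result turned on 2 libraries: Pdgfrb passed without WT normoxia 5 (-0.69, limma adjusted p = 0.0386) or without WT hypoxia 4 (-0.74, limma adjusted p = 0.0202).

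In VIPKO normoxia libraries 1 to 4 the Pdgfrb signal was 3994, 2846, 4221 and 2735, while VIPKO hypoxia libraries 1 to 5 had 3468, 3376, 2298, 3401 and 3674. The hypoxia values lay mostly between the 2 lower and the 2 higher normoxia values. VIPKO against WT in normoxia gave a log2 fold change of -0.43 ± 0.24 (limma adjusted p = 0.277), and hypoxia against normoxia in VIPKO gave -0.08 ± 0.25 (limma adjusted p = 0.922). For the latter, the 95% interval of -0.61 to 0.45 is wide enough to hold a difference of the size measured in WT.

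Pdgfra codes for the α receptor, a marker of alveolar fibroblasts and myofibroblasts. Its signal in WT normoxia had a lowest value of 8111, a median of 9375 and a highest value of 10150, while WT hypoxia libraries 1 to 5 had 5385, 9321, 9695, 9590 and 8657. WT hypoxia 1 was the single low library, and the log2 fold change in WT was -0.16 ± 0.14 (limma adjusted p = 0.452). In VIPKO normoxia libraries 1 to 4 Pdgfra was 7448, 6431, 8635 and 6557, while VIPKO hypoxia libraries 1 to 5 had 10447, 10445, 7032, 11141 and 10373. In VIPKO hypoxia, 4 of 5 libraries lay above every VIPKO normoxia library, and VIPKO hypoxia 3 lay within the normoxia range.

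For hypoxia against normoxia in VIPKO, the log2 fold change of Pdgfra was 0.44 ± 0.16 (95% interval 0.11 to 0.76, limma adjusted p = 0.226). For VIPKO against WT in normoxia it was -0.37 ± 0.15 (95% interval -0.68 to -0.06, limma adjusted p = 0.130). The interaction was the largest of the family, 0.59 ± 0.21 on the log2 scale (95% interval 0.16 to 1.03), and did not pass (limma adjusted p = 0.204). Pdgfra thus sat lowest in VIPKO normoxia and highest in VIPKO hypoxia by group mean (7268 ± 1018, SD, n = 4, and 9888 ± 1627, SD, n = 5), without passing a test over all genes.

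**Figure D3:**
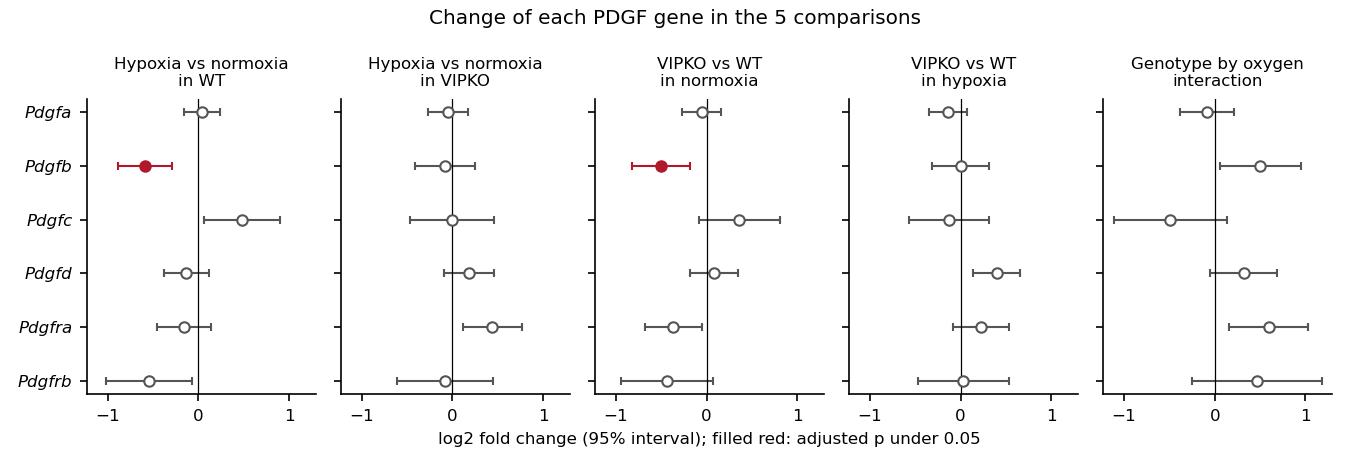
Log2 fold change of each PDGF gene (horizontal axis, points, with 95% intervals as bars) in the 5 comparisons, filled red where the limma adjusted p was under 0.05. Pdgfb is filled in WT hypoxia (-0.59) and in VIPKO against WT in normoxia (-0.51), and no other gene is.

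In counts, hypoxia in WT called 1 of 6 PDGF genes with limma (Pdgfb, lower), where 14.7% of all genes tested were called and 6.77% were called lower. Of the calls over all genes, 53.8% were higher, or 32.0% after upper quartile rescaling. With 6 genes, 1 call is near this background share. The comparison of VIPKO with WT in normoxia called 1 of 6 (Pdgfb, lower), where 8.65% of all genes were called and 3.96% were called lower. Hypoxia in VIPKO called 0 of 6 with limma, where 0.997% of all genes were called, and 1 (Pdgfra) had an unadjusted p under 0.05, as did 13% of all genes. In VIPKO 61.6% of the calls over all genes were higher, or 48.2% after upper quartile rescaling. The comparison of VIPKO with WT in hypoxia called 0 of 6 with limma, where 1.62% of all genes were called, and 1 (Pdgfd) had an unadjusted p under 0.05, as did 18.8% of all genes. The interaction called 0 of 6 with limma, where 0.282% of all genes were called, and 2 (Pdgfb and Pdgfra) had an unadjusted p under 0.05, as did 14.2% of all genes. No PDGF gene had groups that did not overlap. Over all genes 7.94% had such groups for hypoxia in WT, 5.13% for hypoxia in VIPKO, 9.87% for genotype in normoxia and 3.76% for genotype in hypoxia.

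The balance of the receptors is given as a description, since it was chosen with the values known. Pdgfra signal over Pdgfrb signal was 2.14 ± 0.23 in VIPKO normoxia (SD, n = 4) and 3.05 ± 0.16 in VIPKO hypoxia (SD, n = 5). The VIPKO hypoxia ratios, 2.82 to 3.28, all lay above the VIPKO normoxia ratios, 1.87 to 2.40. In WT the ratio was 2.13 ± 0.79 in normoxia (SD, n = 6) and 2.73 ± 0.67 in hypoxia (SD, n = 5), with ranges of 1.63 to 3.72 and 1.76 to 3.25 that overlapped. Pdgfb over Pdgfrb signal was nearly level, with group means of 0.808 to 0.845. Across the 20 libraries, Pdgfb and Pdgfrb had a Pearson r of 0.776 on the log2 scale and 0.681 after group means were removed. Libraries share depth and composition with both genes, so these r values are descriptions only.

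Markers of the cells known to make or receive PDGF moved with these genes in part. The 8 endothelial markers summed to 52752 to 68240 in WT normoxia, 38582 to 64575 in WT hypoxia, 45860 to 52056 in VIPKO normoxia and 41916 to 54461 in VIPKO hypoxia, with 0 of 8 at 0 in any library. WT hypoxia 4, which had the highest Pdgfb of its group, also had the highest endothelial sum of that group. In WT hypoxia 2 of 8 endothelial markers fell, where 6.77% of all genes were called lower, with a median log2 fold change of -0.16 against -0.01 over all genes. They were Kdr, the main VEGF receptor (-0.57 ± 0.12, limma adjusted p = 0.00756), and the junction gene Cdh5 (-0.42 ± 0.13, limma adjusted p = 0.0296, lost in 7 of 20 fits without 1 library, up to 0.0877). Between genotypes in normoxia 2 of 8 were lower in VIPKO, where 3.96% of all genes were called lower, with a median of -0.27 against 0.01 over all genes. They were the tight junction gene Cldn5 (-0.81 ± 0.17, limma adjusted p = 0.00902, or 0.0533 without VIPKO normoxia 2) and the receptor gene Tie1 (-0.37 ± 0.11, limma adjusted p = 0.0463, lost in 14 of 20 fits without 1 library, up to 0.136). Both calls were also lost without the 3 libraries that stood apart (-0.76 and -0.28, limma adjusted p = 0.172 and 0.389) and with the mitochondrial covariate (-0.87 and -0.44, limma adjusted p = 0.440 and 0.520). Each of these 2 settings called 0 of all genes tested between genotypes in normoxia, so these losses are not particular to Cldn5 or Tie1. For hypoxia in VIPKO 0 of 8 endothelial markers were called, where 0.997% of all genes were. Their median there was 0.19 (5 positive and 3 negative), while Pdgfb stood at -0.08.

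Pdgfb per 1000 units of summed endothelial signal had a median of 61.1 in WT normoxia (48.7 to 75.3), 49.5 in WT hypoxia (43.6 to 57.6), 54.2 in VIPKO normoxia (50.8 to 57.4) and 45.0 in VIPKO hypoxia (43.5 to 60.6). Every pair of groups overlapped in this measure. The 9 platelet markers summed to 1058 to 1521 in WT normoxia and 919 to 1832 in WT hypoxia, with 0 of 9 called by limma for hypoxia in WT (1 gene with an unadjusted p under 0.05). The part of endothelial or platelet content in the Pdgfb result was not tested.

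**Figure D4:**
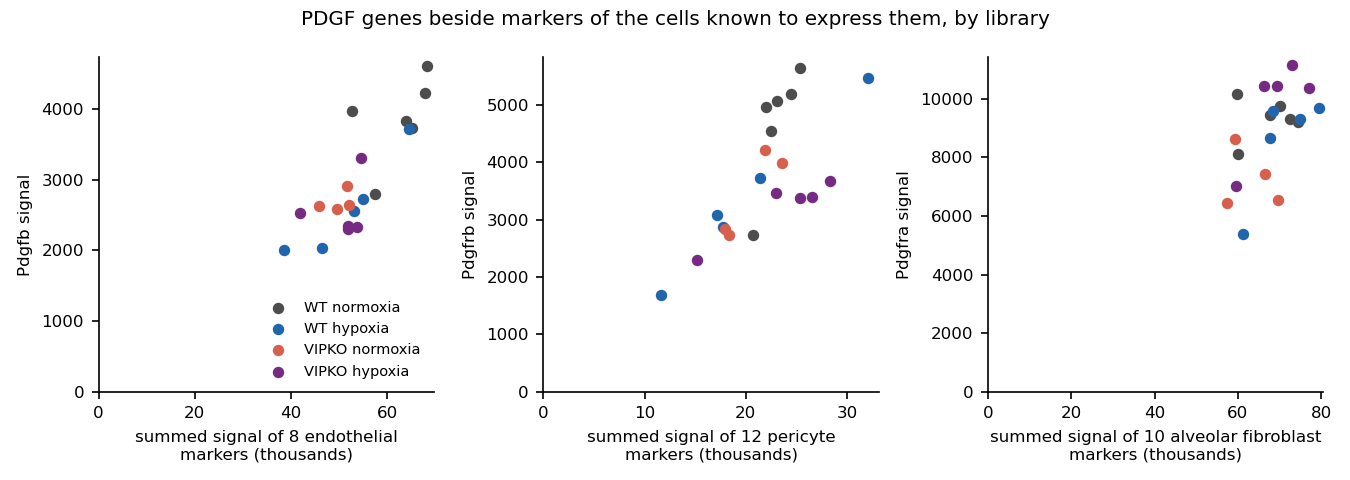
Signal of Pdgfb, Pdgfrb and Pdgfra (vertical axes) against the summed signal (axis in units of 1000) of 8 endothelial, 12 pericyte and 10 alveolar fibroblast markers (horizontal axes), with 1 point per library coloured by group. Most WT normoxia libraries lie at the upper right for Pdgfb with WT hypoxia 4 among them, and the lowest Pdgfrb library, WT hypoxia 1 (1688), also has the lowest pericyte sum (11587).

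The 12 pericyte markers, which leave out Pdgfrb itself, summed to 20689 to 25387 in WT normoxia, 11587 to 32101 in WT hypoxia, 17928 to 23558 in VIPKO normoxia and 15201 to 28351 in VIPKO hypoxia, with 0 of 12 at 0. Pdgfrb per 1000 units of summed pericyte signal had a median of 216 in WT normoxia (132 to 226), 170 in WT hypoxia (146 to 179), 164 in VIPKO normoxia (149 to 193) and 133 in VIPKO hypoxia (128 to 151). The extremes of WT hypoxia were the same libraries as for Pdgfrb, WT hypoxia 1 lowest and WT hypoxia 4 highest. Rgs5, a pericyte gene that codes for a regulator of G protein signalling, rose in WT hypoxia (1.75 ± 0.31, limma adjusted p = 0.00302) and in VIPKO hypoxia (2.88 ± 0.35, limma adjusted p = 0.000119). Rgs5 is part of the pericyte sum, so Pdgfrb per unit of that sum also moves with Rgs5. The other 11 pericyte genes were not called in WT hypoxia, where 14.7% of all genes were, and the list of 12 had a median of -0.19. In VIPKO hypoxia the list had a median of 0.21, while Pdgfrb stood at -0.08. There 2 of 12 rose, where 0.614% of all genes were called higher. They were Rgs5 and the laminin gene Lamc3 (1.01 ± 0.21, limma adjusted p = 0.0201). The call of Lamc3 was lost in 5 of 20 fits without 1 library (up to 0.104), without the 3 libraries that stood apart (0.171) and with the mitochondrial covariate (0.0633). Between genotypes in hypoxia all 12 log2 fold changes were positive, with a median of 0.24, while Pdgfrb stood at 0.03. By adjusted p, 1 of 12 was higher in VIPKO, where 0.716% of all genes were called higher. It was Higd1b (0.84 ± 0.17, limma adjusted p = 0.0198). Its call was lost without WT hypoxia 1 (0.0518), VIPKO hypoxia 2 (0.0647) or VIPKO hypoxia 4 (0.0571), without the 3 libraries that stood apart (0.0815) and with the mitochondrial covariate (0.135). Fitting only the compared groups also lost it (limma adjusted p = 0.115).

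The 8 smooth muscle markers summed to 6606 to 19285 in WT normoxia and 3494 to 20555 in WT hypoxia, and 0 of 8 were called in any comparison with limma (0 at an unadjusted p under 0.05 in WT hypoxia, and 1 each in VIPKO against WT in hypoxia and in the interaction). Their median was -0.56 in WT hypoxia and 0.82 in VIPKO against WT in hypoxia. Pdgfrb per 1000 units of summed smooth muscle signal had a median of 414 in WT normoxia (292 to 453) and 465 in WT hypoxia (212 to 500). In VIPKO this measure had a median of 311 in normoxia (256 to 415) and 227 in hypoxia (216.5 to 261.6). Its median was thus higher in WT hypoxia than in WT normoxia, opposite to the measure per pericyte signal, and those ranges overlapped. The 10 alveolar fibroblast markers, which leave out Pdgfra itself, summed to 59877 to 74552 in WT normoxia and 57469 to 79434 elsewhere, with 0 of 10 at 0. In WT hypoxia 1 of their log2 fold changes was positive and 9 were negative, with a median of -0.14. By adjusted p, 1 of 10 rose there, the methyltransferase gene Inmt (0.46 ± 0.14, limma adjusted p = 0.0345), and 1 fell, the transporter gene Slc7a10 (-0.92 ± 0.26, limma adjusted p = 0.0251). Each of these 2 calls was lost in 5 of 20 fits without 1 library, up to an adjusted p of 0.108 for Inmt and 0.0687 for Slc7a10, and with the mitochondrial covariate (0.0946 and 0.0571). Over all genes 7.88% were called higher and 6.77% lower. Between genotypes in hypoxia 1 of 10 was higher in VIPKO, the collagen gene Col13a1 (0.88 ± 0.22, limma adjusted p = 0.0477), where 0.716% of all genes were called higher. This call was lost in 15 of 20 such fits (up to 0.122), without the 3 libraries that stood apart (0.146) and with the mitochondrial covariate (0.162). The part of pericyte, smooth muscle or fibroblast content in the receptor values was not tested.

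Markers of other cells moved with the same groups. For hypoxia in WT, 6 of 7 alveolar type 2, 5 of 8 airway, 4 of 8 alveolar macrophage, 7 of 7 adipocyte and 2 of 8 adventitial fibroblast markers rose, and 0 of 7 alveolar type 1 and 0 of 6 mesothelial markers passed in limma (1 and 3 had an unadjusted p under 0.05). In that comparison 7.88% of all genes were called higher. Between genotypes in normoxia, 7 of 8 airway, 4 of 8 alveolar macrophage, 2 of 7 adipocyte, 1 of 7 alveolar type 2 and 1 of 8 adventitial fibroblast markers were higher in VIPKO, where 4.69% of all genes were. Their part in the PDGF values was not tested.

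Over 5 lists of other genes of the pathway, 61 in all, the share called lay near that of all genes. It was 7 of 61 (11.5%, against 14.7% of all genes) for hypoxia in WT and 4 of 61 (6.56%, against 8.65%) between genotypes in normoxia. Between genotypes in hypoxia it was 1 of 61 (1.64%, against 1.62%). The named genes below are therefore values of single genes, and nothing is read from their number. In the list of ligand processing and binding genes, 2 of 11 tested (of 12) fell in WT hypoxia, with a median log2 fold change of -0.11. They were Thbs1, the matrix protein thrombospondin 1 (-0.86 ± 0.21, limma adjusted p = 0.0154), and Plat, the protease tPA that cuts PDGF-C (-0.46 ± 0.15, limma adjusted p = 0.0464). Thbs1 kept its call without any 1 library (up to 0.0479), while Plat lost it in 12 of 20 such fits, up to 0.135. For hypoxia in VIPKO 0 of 11 passed in limma (2 had an unadjusted p under 0.05), and the smallest p belonged to Sparc, a matrix protein that binds PDGF-B (0.51 ± 0.13, limma adjusted p = 0.0708), and Furin, a proprotein convertase that processes the A and B chains (0.32 ± 0.10, limma adjusted p = 0.150). Between genotypes in normoxia 0 of 11 passed in limma (2 had an unadjusted p under 0.05), and Furin stood at -0.29 ± 0.10 (limma adjusted p = 0.0577).

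Of the 20 signal transducers, 1 rose in WT hypoxia, the kinase gene Akt1 (0.25 ± 0.08, limma adjusted p = 0.0406), with a list median of 0.00. Its call was lost in 9 of 20 fits without 1 library (up to 0.0928) and with the mitochondrial covariate (0.0854). In VIPKO against WT in normoxia 1 of 20 was lower and 1 higher. The kinase gene Src, which binds activated receptors, fell by 0.41 ± 0.09 (limma adjusted p = 0.00872) and kept its call without any 1 library (up to 0.0454), but not without the 3 libraries that stood apart (-0.31, limma adjusted p = 0.210) or with the mitochondrial covariate (-0.28, limma adjusted p = 0.573). Rasa1, a RAS GTPase-activating protein that docks on the β receptor, rose by 0.46 ± 0.13 (limma adjusted p = 0.0384). Its call was lost in 7 of 20 such fits (up to 0.128) and without the 3 libraries (0.42, limma adjusted p = 0.306), and with the mitochondrial covariate its log2 fold change was 0.15 (limma adjusted p = 0.877). Without the 3 libraries, or with the covariate, 0 of all genes tested were called in VIPKO against WT in normoxia. Those losses are therefore not particular to Src or Rasa1.

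Of the 11 negative regulators, 1 rose and 1 fell in WT hypoxia. The phosphatase gene Acp1 rose by 0.34 ± 0.10 (limma adjusted p = 0.0331), a call lost in 7 of 20 fits without 1 library (up to 0.0878), without the 3 libraries that stood apart (0.0504) and with the mitochondrial covariate (0.0931). The ubiquitin ligase gene Cbl, which marks activated receptors for degradation, fell by 0.34 ± 0.09 (limma adjusted p = 0.0215, or 0.0560 without WT hypoxia 1, 0.0521 without WT hypoxia 3 and 0.0558 with the covariate). In VIPKO against WT in normoxia the feedback inhibitor Spry1 fell by 0.53 ± 0.13 (limma adjusted p = 0.0185, or 0.0928 without VIPKO normoxia 2 and 0.0641 without VIPKO normoxia 4). Without the 3 libraries that stood apart Spry1 stood at -0.57 (limma adjusted p = 0.143), and with the mitochondrial covariate at -0.17 (limma adjusted p = 0.845). The phosphatase gene Ptpn2 rose by 0.33 ± 0.10 (limma adjusted p = 0.0474), a call lost in 15 of 20 fits without 1 library, up to 0.204. Without the 3 libraries Ptpn2 stood at 0.16 (limma adjusted p = 0.588), and with the covariate at 0.27 (limma adjusted p = 0.663). Both settings called 0 of all genes tested in that comparison, so those losses are not particular to Spry1 or Ptpn2.

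Of the 11 PDGF-induced genes tested (of 12), 1 rose in WT hypoxia, Klf5, a transcription factor of smooth muscle growth (0.63 ± 0.13, limma adjusted p = 0.00700), and kept its call without any 1 library (up to 0.0226). The list median there was -0.17. Between genotypes in normoxia 0 of 11 passed in limma (1 had an unadjusted p under 0.05), with 7 positive and 4 negative log2 fold changes and a median of 0.09. The smallest p there belonged to the immediate early genes Junb (-0.70 ± 0.31, limma adjusted p = 0.170) and Egr1 (-1.07 ± 0.53, limma adjusted p = 0.214), both among the 4 negative ones. Of the 8 related class III receptors and ligands, 1 fell in WT hypoxia, the ligand gene Csf1 (-0.32 ± 0.10, limma adjusted p = 0.0330, lost in 6 of 20 fits without 1 library, up to 0.101, and with the covariate, 0.0753). In VIPKO against WT in hypoxia 1 of 8 fell, its receptor gene Csf1r (-0.31 ± 0.07, limma adjusted p = 0.0325, lost in 6 of 20 such fits, up to 0.0917, without the 3 libraries, 0.0999, and with the covariate, 0.157). Hypoxia in VIPKO and the interaction called 0 of 61 genes of the 5 pathway lists with limma, where 0.997% and 0.282% of all genes were called. At an unadjusted p under 0.05 they had 8 (13.1%, against 13% of all genes) and 6 (9.84%, against 14.2%).

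**Figure D5:**
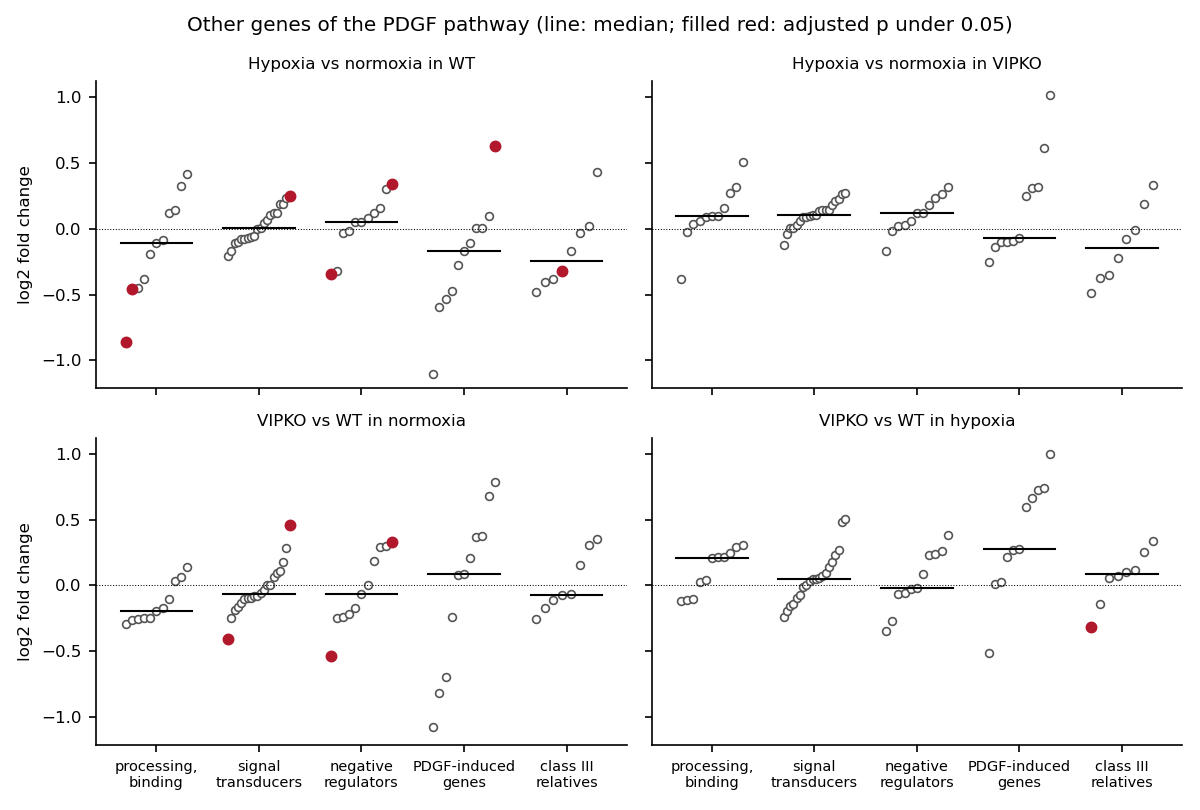
Log2 fold change (vertical axis) of each tested gene in 5 lists of other PDGF pathway genes, in 4 comparisons, with a line at each list's median and filled red points where the limma adjusted p was under 0.05. List medians lie between -0.24 and 0.28, and the red points are 7 genes in WT hypoxia, 4 in VIPKO against WT in normoxia, 1 in VIPKO against WT in hypoxia and 0 in VIPKO hypoxia.

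The genes whose log2 signal followed each PDGF gene most closely over the 20 libraries are given as a description with no test. For Pdgfb they were Rnf144a (Pearson r = 0.913), Tmem178 (0.899) and Ttyh3 (0.881). For Pdgfrb they were S1pr3, a sphingosine-1-phosphate receptor gene (0.956), Rasl12 (0.944) and Mylk, the myosin light chain kinase gene (0.941). For Pdgfra they were Adarb1 (0.863), Spon1 (0.859) and Crispld2 (0.850). For Pdgfd they were Map4k3 (0.896), Zfp979 (0.885) and Eogt (0.863). For Pdgfa they were Snx12 (0.825), Iqce (0.788) and Tmem218 (0.778), and for Pdgfc they were Mt1, a metallothionein gene (0.761), Galm (0.738) and Ninj1 (0.736). The r values were lowest for Pdgfc, whose estimated reads were fewest.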

How the data were processed

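For the 20 whole-lung libraries, RNeasy Mini Plus RNA was put through the NEBNext Ultra II Directional protocol, per the labels' protocols. Reads were processed in Partek against mm10, per the submitters' processing notes. The aligner, the strand used in counting and the normalization are not given in these sources. The authors deposited 1 table of gene values that they had normalized, and its unit is treated as a signal. Of its 30746 rows, 55 (0.179%) had no gene name and were left out. Read as multiples of the smallest step, values of at most 20 reads came within 0.05 of a whole read in 81.4% to 88.8% of cases, except in VIPKO hypoxia 2 (40.1%). Count models were therefore not used, and depths and read numbers are estimates that speak to counting error alone.

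Tests used log2(signal + 1). The 21658 genes with a signal of at least 10 in at least 4 libraries were tested. limma 3.58.1 (R 4.3.3) fitted 4 group means to all 20 libraries with a variance trend, and 5 two-sided contrasts were adjusted by the Benjamini-Hochberg method over all genes, with a threshold of 0.05. A fold change on this scale understates the change of low genes. The fit was tested on simulated data.

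The 6 genes, the gene lists and the tests were chosen with earlier results of these data known. Named were all 6 genes, up to 4 called genes of each pathway list (or 2 as values), the called genes of cell type lists, and the 3 genes most like each member with a mean signal of at least 50. Per-kb levels divide by the union of annotated exons. Alternatives covered the pseudocount, filter, scaling, variance trend, library weights, groups fitted, replicate number as a block and each library left out. Those added after seeing the data left out VIPKO normoxia 2 and 3 with VIPKO hypoxia 2, left out WT hypoxia 5 with VIPKO hypoxia 3, or added a mitochondrial ribosomal RNA covariate. All libraries carry the same batch label, so no batch term was fitted. Python 3.11.15, numpy 2.4.6, pandas 2.3.3, scipy 1.17.1 and matplotlib 3.10.9 were used for tables and figures.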

Additional observations from a re-analysis of the deposited data

Results flagged for a closer look

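In 7 of 24 sets of libraries (6 genes in 4 groups), 1 library lay far from the others of its group by Dixon's test. Chance alone gives about 1 in 20 for a single set. The 6 genes share the same libraries, so the sets are not independent and no excess is read from the 7. Pdgfa signal was 1695 in WT normoxia 3, where the next was 1340. Pdgfb was 3298 in VIPKO hypoxia 4 (next 2529), and Pdgfc was 111.1 in the same library (next 68.3). Pdgfd was 509.2 in WT hypoxia 4, the shallowest library (next 419). Pdgfra was 5385 in WT hypoxia 1 (next 8657) and 7032 in VIPKO hypoxia 3 (next 10373). Pdgfrb was 2298 in VIPKO hypoxia 3 (next 3376), the library with the thymus signal. VIPKO hypoxia 4 was also the library with the highest Vip signal, 106.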

How the results depend on the processing

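Over 34 alternatives per comparison of 2 groups, the fall of Pdgfb in WT hypoxia kept its direction and its call in every one (log2 fold change -0.73 to -0.50). The number of PDGF genes called in VIPKO against WT in normoxia was 0 with no filter, quantile normalization, no variance trend, the replicate block, the 3 libraries that stood apart left out, or the mitochondrial covariate, 2 when only the compared groups were fitted and 3 with library weights. Leaving out the 3 libraries, or adding the covariate, called 0 of all genes in that comparison. Library weights called 3 in WT hypoxia, 1 in VIPKO hypoxia, 1 in VIPKO against WT in hypoxia and 2 in the interaction, and leaving out WT hypoxia 5 with VIPKO hypoxia 3 called 1 (Pdgfd) in VIPKO against WT in hypoxia. Leaving out 1 library gave 1 to 2 genes in WT hypoxia and 0 to 1 in either VIPKO against WT comparison. Of 14 further alternatives, some named above, list genes lost their calls in these numbers. In WT hypoxia Acp1 lost it in 7, Akt1 in 6, Inmt in 5 and Plat and Slc7a10 in 3. Cbl and Csf1 lost it in 2 there and Cdh5 in 1. VIPKO against WT in normoxia lost Ptpn2 in 8, Tie1 in 6, Rasa1 in 4 and Cldn5, Spry1 and Src in 2. In hypoxia it lost Col13a1 in 7, Csf1r in 5 and Higd1b in 3, and VIPKO hypoxia lost Lamc3 in 3. Kdr, Klf5, Rgs5 and Thbs1 lost it in 0.

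Only small, uncalled changes reversed sign. Pdgfa in WT hypoxia was -0.061 with upper quartile rescaling and -0.016 with quantile normalization, and in VIPKO against WT in normoxia 0.072 without the 3 libraries and 9.27e-05 with the covariate. Pdgfb in VIPKO against WT in hypoxia was 0.019 and 0.023 with those scalings, 0.057 with weights, 0.056 with the covariate, 0.033 without the 3 libraries and 0.025 without the 2. Pdgfc in VIPKO hypoxia was 0.066 with quantile normalization, 0.021 with weights, 0.039 without the 2 libraries and 0.011 with the covariate. Pdgfrb in VIPKO hypoxia was 0.057 with weights and 0.039 without the 2 libraries. Without 1 library at a time, Pdgfa ran from -0.12 to 0.0038 in VIPKO hypoxia and from -0.11 to 0.016 in VIPKO against WT in normoxia, Pdgfb from -0.096 to 0.14 and Pdgfrb from -0.19 to 0.23 in VIPKO against WT in hypoxia, and Pdgfc from -0.16 to 0.073 and Pdgfrb from -0.18 to 0.039 in VIPKO hypoxia. The cause was not tested.

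Counts over all genes moved more. The main counts, in the order WT hypoxia, VIPKO hypoxia, VIPKO against WT in normoxia, VIPKO against WT in hypoxia and interaction, were 3173, 216, 1873, 350 and 61. They were 6590, 717, 5448, 1926 and 2228 with weights, and 1544, 90, 682, 149 and 0 with the replicate block. Without the 3 libraries the last 4 were 45, 0, 27 and 0, and with the covariate WT hypoxia gave 1539 and the last 3 gave 0, 25 and 0. Fitting only the compared groups gave 134 and 9 in VIPKO hypoxia and VIPKO against WT in hypoxia. In the latter, no filter gave 225 and no trend 222, and the interaction gave 12 with no trend. Without the 2 libraries, 1065 and 292 were called in VIPKO against WT in hypoxia and the interaction. Leaving out 1 library gave 1382 to 4710, 88 to 392, 359 to 2551, 35 to 1339 and 4 to 541. The labels do not say whether replicate numbers pair libraries, and these values do not settle it. Of 27 pairs with the same number, 7 had an r above 0.1 (-0.289 to 0.410), against 26 of 122 pairs with different numbers (-0.567 to 0.560). Of the 20 libraries, 7 correlated best with their own number. With the block, Pdgfb in VIPKO against WT in normoxia was -0.51 (limma adjusted p = 0.0713). Depth limits Pdgfc most.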
